A study of Homo sapiens with 4 samples.

Results

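Of the 39654 Flag-FLI1 peaks called in HK1 cells after IFN-γ treatment, 2838 are described here. They lay inside introns, had no counterpart in the control list, and held neither the AP-1 heptamer nor a long repeat of the ETS core. These IFN-only intronic peaks were chosen by the peak calls themselves. A member overlapped no control peak, lay over 3 kb from every GENCODE 44 transcription start site (TSS), and had its summit in the body of a protein-coding gene but in no annotated exon. Within 100 bp of the summit it held neither TGACTCA or TGAGTCA, the heptamer bound by AP-1 (FOS and JUN dimers), nor 4 or more GGAA units in tandem on either strand. The data came from HK1, an established nasopharyngeal carcinoma cell line. All of the cells overexpressed Flag-tagged FLI1, and chromatin was pulled down through the tag, so the peaks report the introduced protein and not the endogenous one. The control cells received PBS and the others received IFN-γ, both for 24 h. There was 1 Flag ChIP library per condition, so the treatment was not tested, and the input libraries are not analysed here.

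FLI1 belongs to the ETS family of transcription factors, which bind DNA around the core GGAA. IFN-γ acts through JAK kinases and STAT dimers, which bind gamma-activated sites (GAS), and through interferon regulatory factors (IRFs), which bind the IFN-stimulated response element (ISRE). Introns hold many of the enhancers of human genes, and ETS and AP-1 sites often lie side by side in enhancers. The members are the intronic IFN-only peaks in which 2 familiar settings of FLI1 sites, the AP-1 heptamer and the GGAA microsatellite, are missing.

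Of all IFN-γ peaks, 39.0% overlapped no control peak. Among intronic IFN-γ peaks with the same exclusions the share was 54.5% (2838 of 5203), and among intergenic ones it was 54.0% (3820 of 7071). Since the rule uses these calls, the shares describe the selection. From 15451 IFN-only peaks, 11140 were over 3 kb from a TSS, 4660 of these had the summit in a protein-coding gene body, and 4433 of these were in no exon. The repeat exclusion then removed 580 peaks and the AP-1 exclusion another 1015. The 3 classes set beside the members, all with the same distance and motif exclusions, were 3820 IFN-only intergenic peaks, 2365 shared intronic peaks and 1051 intronic peaks found only in the control list.

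The sequences below come from members picked for a high −log10 p or fold, apart from *CREBBP*, and not from typical ones. In the 3 members with the highest −log10 p, the ETS core is in capitals (GGAA, or TTCC on the other strand). Windows of 81 bp centred on the summit are shown for these and for *CREBBP*, and windows of 61 bp for the others. All are from the plus strand of GRCh38.
*SRPK2*, chr7:105150000-105150080: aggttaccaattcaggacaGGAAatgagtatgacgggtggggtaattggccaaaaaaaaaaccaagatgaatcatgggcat
*STK39*, chr2:168156773-168156853: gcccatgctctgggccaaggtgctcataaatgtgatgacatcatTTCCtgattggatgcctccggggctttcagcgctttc
*OTOGL*, chr12:80226741-80226821: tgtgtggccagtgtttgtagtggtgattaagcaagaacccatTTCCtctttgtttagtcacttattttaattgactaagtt
In all 3 windows the core is followed by A and T on its own strand, which gives GGAAAT.

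The members with an ETS octamer (CAGGAAGT or CCGGAAGT, close to the FLI1 consensus) and the highest fold enrichment are shown with the octamer in capitals.
*HAO1*, chr20:7924868-7924928: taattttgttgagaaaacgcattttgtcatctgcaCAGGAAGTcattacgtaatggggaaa
*UBE2E2*, chr3:23324868-23324928: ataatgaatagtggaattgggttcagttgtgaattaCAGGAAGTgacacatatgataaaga
In the next pair the ETS word runs straight into TGA, the opening letters of the AP-1 heptamer, and the capitals mark GGAA, A or G, TGA and the 4 letters after them.
*ADAMTSL3*, chr15:83848422-83848482: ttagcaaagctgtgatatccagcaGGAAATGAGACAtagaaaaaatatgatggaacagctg
*HCRTR2*, chr6:55241347-55241407: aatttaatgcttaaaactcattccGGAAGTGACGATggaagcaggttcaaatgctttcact
An ISRE-like and a GAS-like site, from the members with the highest fold that hold one and are not already shown, have the motif in capitals. These windows are centred on the motif and do not reach the summits, which are at chr1:222582223 and chr1:28062959.
*TAF1A*, chr1:222582255-222582315: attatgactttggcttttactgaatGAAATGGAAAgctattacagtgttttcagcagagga
*EYA3*, chr1:28063024-28063084: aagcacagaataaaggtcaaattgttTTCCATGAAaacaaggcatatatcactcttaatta
The member in *CREBBP*, a gene that the study follows, is shown last.
*CREBBP*, chr16:3871222-3871302: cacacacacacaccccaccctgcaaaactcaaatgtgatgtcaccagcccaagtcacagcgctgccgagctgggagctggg
The *CREBBP* summit has 0 ETS cores within 100 bp and lies beside a run of AC units.

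The members were modest peaks. Fold enrichment is the fragment pileup at the summit plus 1 over the local background plus 1. Its median was 5.03, with a range of 2.50 to 22.9. The median summit pileup was 15 fragments (7 to 76) over a background of 2.12, and the median width was 303 bp. Shared intronic peaks had a median fold of 7.50, a pileup of 27 fragments and a width of 457 bp. IFN-only intergenic peaks had a median fold of 5.05 and a pileup of 15, and control-only intronic peaks a fold of 4.74 and a pileup of 10 in the shallower library. In the ranking of all IFN-γ peaks by −log10 p, 10 members were in the top 10% and 46.0% (44.1% to 47.8%) below its lower quartile. Ranges after a percentage are exact Clopper-Pearson 95% intervals, which cover counting error only. These values are tied to the calls and are given as a description.

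**Figure D1:**
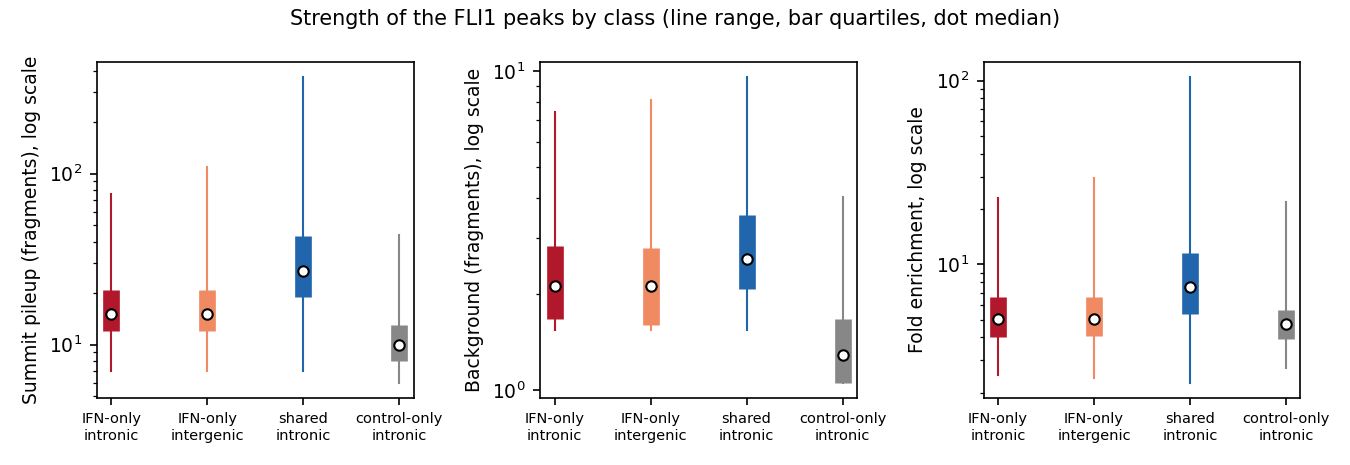
Summit pileup, background and fold enrichment (log axes) of the 4 peak classes, with a line for the range, a bar for the quartiles and a dot for the median. The members resemble the IFN-only intergenic peaks (median pileup 15 in both), and the shared intronic peaks are higher (median pileup 27).

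The IFN-γ library was the deeper of the pair by 1.46 times, judged by the lowest background in each list. When pileup and background were divided by that ratio, 92.7% (91.7% to 93.6%) of the members still passed the lowest −log10 p of the control list, which was 3.52. These were 2631 members, and the rest fell under that cutoff once scaled. With the ratio of the median backgrounds, 1.83, the share that passed was 80.7%. The control pileup at these positions is not given by the lists, so a member may hold a weaker signal in the control cells.

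The strongest members were in genes of varied function. By −log10 p the order was *SRPK2*, a kinase of splicing factors, *STK39*, a kinase that controls ion cotransporters, *OTOGL*, an inner ear matrix gene, *OSBPL9*, a lipid transfer gene, *CFDP1*, *ITGB8*, the integrin subunit that activates TGF-β, *HAO1*, a liver oxidase, *PACS2*, *ADAMTSL3*, *ATP9A*, *COL5A1*, a collagen, and *MEIKIN*, a meiotic kinetochore gene. The *SRPK2* peak, in intron 7 of 15, had a pileup of 69 fragments over a background of 2.22, a fold of 21.7 and a −log10 p of 76.8. The *STK39* peak, in intron 5 of 17, had 70 fragments over 2.83 and a fold of 18.5. The *HAO1* peak had the highest fold of any member, 22.9, with 57 fragments over 1.54. At control depth the 12 pileups scaled to between 37.8 and 52.2 fragments, and the nearest control peak to any of them was 1315 bp away, beside *ATP9A*. Of these 12 members, 11 held the 7-letter ETS word described next and 10 held a word 1 letter from the AP-1 heptamer. The exception to the first was *COL5A1*, whose window held 23 ETS cores. It also held a repeat of the unit AAGGG, 46 bases long, which itself spells GGAA wherever 1 copy of the unit meets the next.

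**Figure D2:**
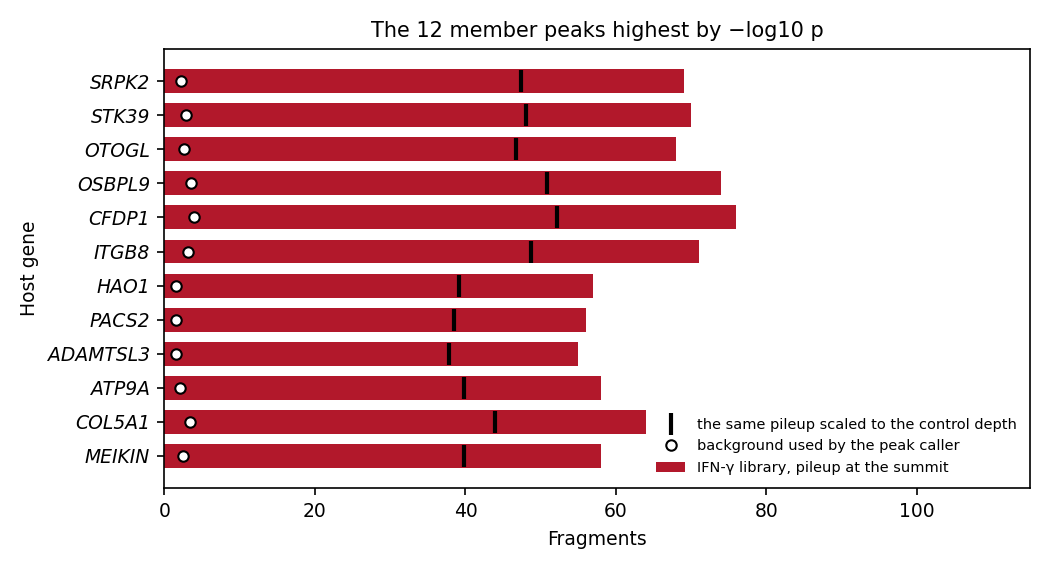
Pileup of the 12 members highest by −log10 p in fragments (bars), the same pileup divided by the depth ratio of 1.46 (ticks) and the background (circles). The pileups run from 55 to 76 fragments and every background is under 4.

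ETS sequence marked the summits. The core GGAA was within 100 bp in 97.9% (97.2% to 98.4%) of the members and in 82.5% of the 5676 flanking windows of the same length, centred 1 kb to either side. The ETS octamer was in 14.7% (13.4% to 16.1%) against 1.43% of the flanks. Among the 8-letter words with the largest excess over the flanks was AGGAAATG, in 14.3% of the members and 0.987% of the flanks. It carries A after the core where the octamer carries G. A shorter word was therefore counted after the data were seen, with A or C before GGAA and A or G followed by T after it. This 7-letter ETS word, which takes in the octamer, was in 53.9% (52.0% to 55.7%) of the members and 10.5% of the flanks. AGGAAAT was in 30.3% and AGGAAGT in 25.3% of the members, against 6.27% and 3.89% of the flanks. The words centred on the summits, with 311 of the 7-letter words over all members per 20-bp bin within 40 bp and 42.5 per bin between 200 and 300 bp away.

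**Figure D3:**
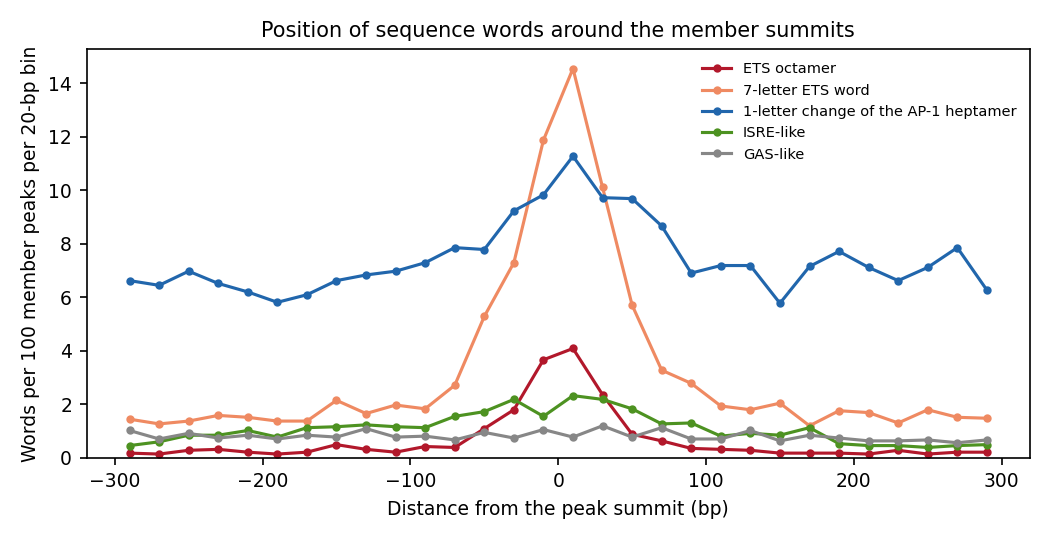
Words per 100 members in 20-bp bins against the distance from the summit in bp. The 7-letter ETS word and the ETS octamer peak at the summit, ISRE-like words are at 1.55 to 2.33 per 100 members within 40 bp and 0.388 to 1.02 beyond 200 bp, and GAS-like words at 0.740 to 1.198 and 0.564 to 1.02.

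Although the AP-1 heptamer itself was excluded, near forms of it were common. A word with any 1 letter changed was in 57.7% (55.9% to 59.5%) of the members and 48.7% of the flanks. The shares depended on which letter was changed. With the central letter changed (TGAATCA or its reverse complement TGATTCA, here AP-1-like) the shares were 10.7% (9.56% to 11.9%) and 3.28%. With the letter next to either end changed they were 27.5% and 15.3%, and with the letter at either end changed 12.4% and 10.96%. With a letter beside the centre changed the members had the lower share, 25.2% against 27.7%. TGACTAA was in 8.53% of the members and 2.48% of the flanks. The comparison classes held these forms too. Any 1-letter change was in 54.9% of the IFN-only intergenic, 57.3% of the shared intronic and 51.1% of the control-only intronic peaks. In the same order, the central-letter form was in 11.3%, 10.5% and 6.85%, and TGACTAA in 8.82%, 8.29% and 4.47%.

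The ETS core and then A or G ran directly into TGA at some summits, with any letter allowed before the core. This held in 570 members (20.1%, 18.6% to 21.6%), *ADAMTSL3* and *HCRTR2* among them, against 2.68% of the flanks. The heptamer that opens with this TGA and lay whole in the window of 568 of them was 1 letter from TGACTCA or TGAGTCA in 25.5%. In the flanks that share was 9.52% of 147 windows, and among all possible endings of 4 letters it is 7.81%. The members shared this arrangement with the comparison classes. The core with A or G that runs into TGA was in 17.1% of the IFN-only intergenic, 18.6% of the shared intronic and 11.4% of the control-only intronic peaks.

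ISRE-like sites were more frequent in the members than in the shared intronic peaks, and the difference in GAS-like sites did not pass the test. The ISRE-like motif (a pair of GAAA words 2 letters apart) was in 10.6% (9.53% to 11.8%) of the members, 3.45% of their flanks and 5.12% of the shared intronic peaks (adjusted p = 3.36e-12, two-sided Fisher's exact test, Benjamini-Hochberg over 34 tests of 17 motifs against 2 classes). The IFN-only intergenic peaks had a share of 12.2% (adjusted p = 0.178 against the members, Fisher's exact test), and the flanks of the shared intronic peaks one of 2.71%. These tests compare the sequences of called peaks and do not test the treatment. Simple repeats moved with it. A tandem repeat was counted from 16 bases, or from 12 for a run of 1 base. Such a repeat lay within 100 bp of 11.4% (10.3% to 12.6%) of the members, near the 9.62% of their flanks and under the 13.2% of the intergenic peaks. The shared peaks, with 6.68%, were below their own flanks at 9.34%. Of the members with a repeat, 32.1% held an ISRE-like site. Without such a repeat, a split made after the data were seen, the ISRE-like share was 7.88% in the members, 8.90% in the intergenic peaks, 3.99% in the shared peaks (Fisher's exact test against the members, p = 2.04e-08) and 2.79% in the control-only peaks. The ETS core overlapped the ISRE-like site in 55.6% of the 302 members with one. That share was 55.2% in the intergenic, 70.2% in the shared and 67.7% in the control-only peaks with such a site. The form with C after the first GAAA, as in many IRF sites, was in 1.66% of the members and 0.930% of the shared peaks. The GAS-like motif, TTCNNNGAA, was in 7.82% (6.86% to 8.87%) of the members, 6.34% of the flanks and 6.98% of the shared peaks (adjusted p = 0.628, Fisher's exact test).

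Another 5 motifs were less frequent in the members than in the shared intronic peaks. The SP/KLF box GGGCGG was in 4.33% against 10.4% (adjusted p = 5.54e-16), the E-box CAGCTG in 8.74% against 13.6% (3.31e-07), the NF-kappaB motif in 2.89% against 4.95% (0.00126), the ETS core in 97.9% against 99.1% (0.00200) and the TEAD motif GGAATG in 15.5% against 18.4% (0.0374), all by Fisher's exact test. The median GC content of the windows moved with these shares, 44.3% in the members and 49.8% in the shared peaks. Its part in them, and in the ISRE-like difference, was not tested. The ETS octamer did not pass the threshold in the exact test (2.27 percentage points lower in the members, adjusted p = 0.101). Against the IFN-only intergenic peaks, 1 of the 17 motifs passed in the exact test, the GAS-like one, with 7.82% in the members and 9.66% in the intergenic peaks (adjusted p = 0.0491). It did not pass the exact test with lists of equal length (adjusted p = 0.0798) or within 50 bp of the summit (0.605).

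**Figure D4:**
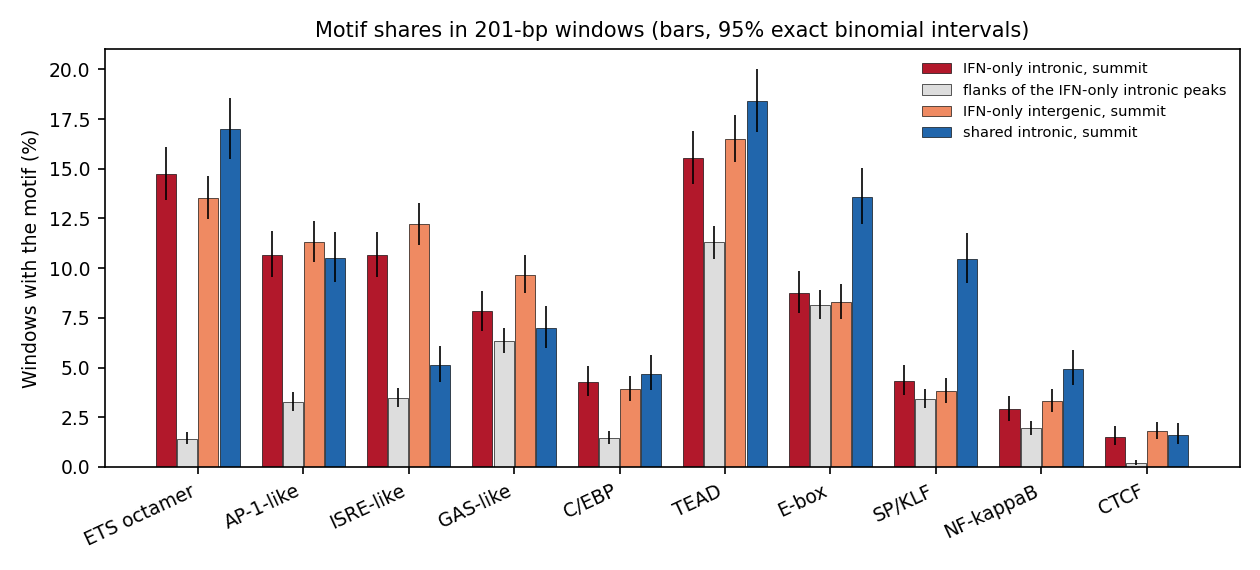
Share of windows within 100 bp of a summit with a motif, in percent with exact 95% intervals, at the member summits, in the flanks of the members (grey) and at the summits of 2 comparison classes. The ETS octamer and the AP-1-like word stand above the flanks in all classes, while the ISRE-like share is 10.6% in the members and 5.12% in the shared intronic peaks.

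Stronger members held more of these sequences. The members were split into 3 equal parts of 946 by −log10 p. The 7-letter ETS word was in 66.0% (62.8% to 69.0%) of the strongest, 55.8% of the middle and 39.9% (36.7% to 43.1%) of the weakest part. The octamer went from 19.5% to 15.3% and 9.41%, and the AP-1-like word from 15.3% to 11.2% and 5.50%. ISRE-like sites went from 12.1% to 10.6% and 9.30% with intervals that overlap, and GAS-like sites were at 8.14%, 7.72% and 7.61%. The 61 members with 0 ETS cores had a median fold of 3.91, against 5.02 for the 2396 members in which no core was repeated in tandem.

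The wording "outside repeats" holds for ETS-core repeats of 4 or more units. Of the members, 257 had 2 tandem cores and 124 had 3. Those with 3 had a median fold of 5.24, and the intronic IFN-only peaks just beyond the limit, with 4 units, had one of 5.52. Repeats of A and G units were within 100 bp in 5.99% (5.15% to 6.93%) of the members, 8.19% of the IFN-only intergenic, 2.79% of the shared intronic and 1.62% of the control-only intronic peaks.

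The members lay across the gene bodies. The median distance from the summit to the nearest TSS was 12.3 kb, and 16.1% of the summits were 3 to 5 kb and 2.40% over 100 kb away. Of the members, 401 lay in no intron of a canonical transcript. Of the 2437 that lay in one, 31.2% (29.3% to 33.1%) were in the first intron, which made up 23.8% of the eligible bases. The share was 35.3% (33.2% to 37.5%) for shared intronic peaks. Over 931 Mb of eligible sequence the density was 3.05 members per Mb, from 1.63 on chromosome X to 4.47 on chromosome 19. The members just inside the distance limit, in *PCED1B* and *ATP2B2*, were both 3004 bp from a TSS with folds of 8.13 and 5.07, and the peaks just outside it, in *SOGA1* and *PRSS23*, were at 2998 and 2995 bp with folds of 4.61 and 6.80. The member in *CLIP2* was 7 bp from a control peak, and a peak in *BBS2* was left out for 11 shared bases.

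Members were spread thinly over 2089 genes, 10.4% of the 20033 protein-coding genes, and 1506 of these held exactly 1. *RAD51B*, a recombinational repair gene with 772819 bases of eligible sequence, had 14 members, with folds from 3.70 to 12.1 and pileups from 9 to 41 fragments, beside 4 shared intronic peaks. Some of the *RAD51B* members lay in no intron of a canonical transcript. *PCDH7*, a protocadherin, had 7, with pileups of 37, 25, 20, 17, 14, 14 and 12 fragments. *CUBN*, a receptor of endocytosis, *GRID1*, a glutamate receptor gene, and *LRP1B* had 6 each, as did 3 further genes. Host genes were long, with a median of 102 kb of eligible sequence against 16.4 kb for genes with such sequence and no member. A FLI1 peak in either list lay within 3 kb of a TSS of 76.9% of the host genes and 65.6% of all protein-coding genes. By quartile of eligible sequence, from the shortest, the shares of host genes and of genes without a member were 62.8% and 62.7%, then 72.2% and 69.2%, then 76.1% and 71.6%. Above the upper quartile they were 78.1% (75.8% to 80.2%) of 1415 host genes and 66.6% (64.6% to 68.4%) of 2428 genes without a member.

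In 9 gene lists, members are given as a count and per Mb of eligible intron sequence (a member in overlapping genes is counted in each). Over all protein-coding genes there were 3.06 members and 2.56 shared intronic peaks per Mb, and 10.4% of the genes held a member. The median eligible sequence of a gene ran from 1.26 kb in the IFN-γ response list to 65.3 kb in the Hippo and TGF-β list. It was 10.7 kb over all protein-coding genes. The highest of a list are those highest by −log10 p. Of 38 IFN-γ response genes, 4 held members (10.5%, beside 10.4% of all protein-coding genes). Among them were *IRF1*, a transcription factor of the response, with 2, *CIITA*, which switches on MHC class II genes, and *NLRC5*, its counterpart for class I. The genes are short, and these 5 members made 12.7 per Mb (exact Poisson 95% interval 4.14 to 29.7), beside 5.09 (0.617 to 18.4) for shared intronic peaks in the same genes. The stronger *IRF1* peak had 22 fragments and a fold of 4.88. Its canonical intron was the first of an overlapping gene, ENSG00000283782, and no canonical intron of *IRF1* was assigned to it. The *NLRC5* peak had 17 fragments and a fold of 4.30, and the *CIITA* peak 20 fragments and a fold of 3.33.

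Of 32 JAK-STAT genes 4 held a member each, *IFNGR2*, *IFNAR2*, *JAK1* and *LIFR*, at 3.17 per Mb. The *IFNGR2* peak (21 fragments, fold 5.26) also lay in *TMEM50B*, the *JAK1* peak had 17 fragments and a fold of 4.57, and the *IFNAR2* peak had 13 fragments, a fold of 5.05 and an ETS octamer. A stronger IFN-only peak in *JAK1*, with 41 fragments and a fold of 9.25, was left out by the AP-1 heptamer. The *IFNGR2* and *IFNAR2* members lay in no intron of a canonical transcript. *IFNGR1* and *JAK2* held none, in 15061 and 94357 bases of eligible sequence.

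The list of tryptophan, kynurenine and AHR genes had members in 5 of 19, at 8.92 per Mb (4.08 to 16.9), against 2.97 (0.613 to 8.69) for shared intronic peaks. *AHR*, the receptor activated by kynurenine, held 4 within 355523 bases of eligible sequence, with pileups of 23, 20, 16 and 11 fragments, and its repressor *AHRR* held 2, with 35 and 26. The strongest *AHR* member lay in no intron of a canonical transcript. The strongest of the list (37 fragments, fold 9.08) lay in both *KYAT1*, a kynurenine aminotransferase gene, and an overlapping gene, ENSG00000286112. The *IDO2* member had 8 fragments and a fold of 3.55 and did not pass the control cutoff after depth scaling. A second IFN-only peak in *IDO2*, with 21 fragments and a fold of 8.67, was left out by the AP-1 heptamer. *IDO1* held 0 members in 5385 bases of eligible sequence.

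Of 26 histone acetylation genes 9 held members, 12 in all, at 4.84 per Mb (2.50 to 8.46), while the same genes held 1 shared intronic peak, 0.403 per Mb (0.0102 to 2.25). The highest were in the deacetylase genes *HDAC1* (22 fragments, fold 9.07, with an octamer), *HDAC7* (24, 5.97) and *HDAC4* (20, 6.04). The acetyltransferase gene *CREBBP* had 1 in intron 1 of 30, with 17 fragments over 2.86 and a fold of 4.66. A stronger IFN-only peak in *CREBBP*, with 22 fragments and a fold of 6.93, was left out. It lay 624 bp from a TSS and held 4 ETS cores in tandem. *KAT5*, which has no intron sequence over 3 kb from a TSS, could hold none.

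ETS family genes held members in 7 of 26, at 7.16 per Mb (3.27 to 13.6), against 10.3 (5.50 to 17.7) for shared peaks. The highest were in *ETV6* (30 fragments, fold 11.2), *ETS1* (21, 7.70) and *ELF4* (18, 7.11), each with the 7-letter ETS word. *FLI1* itself had 0 members and 1 shared intronic peak in 98187 eligible bases.

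Hippo and TGF-β genes held members in 12 of 30, 20 in all, at 7.38 per Mb (4.51 to 11.4), with 4.80 (2.55 to 8.20) for shared peaks. *STK4*, an upstream kinase of the pathway, had the strongest (54 fragments, fold 17.6). The coactivator *WWTR1* had 4, with 48, 38, 35 and 20 fragments, and its DNA-binding partner *TEAD3* had 1 with 45 fragments. Adhesion genes held members in 12 of 30, at 8.13 per Mb (4.55 to 13.4), with *ITGB8* (71 fragments, fold 17.2), *ITGA6* (51, 13.6) and *VCL* (45, 10.1) the highest. Squamous regulators held 13 members in 4 of 22 genes, at 6.97 per Mb, 5 of them in *RUNX1*, 4 in *GRHL3* and 3 in *TP63*, whose strongest had 23 fragments and a fold of 6.26. The strongest *RUNX1* member lay in no intron of a canonical transcript. Growth factor genes held members in 6 of 34, at 3.56 per Mb, with *EGFR* (21 fragments, fold 7.04), *ERBB4* (20, 6.72) and *MET* (22, 5.49) the highest. No list was tested, and which of the genes the cells express was not measured in these libraries.

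**Figure D5:**
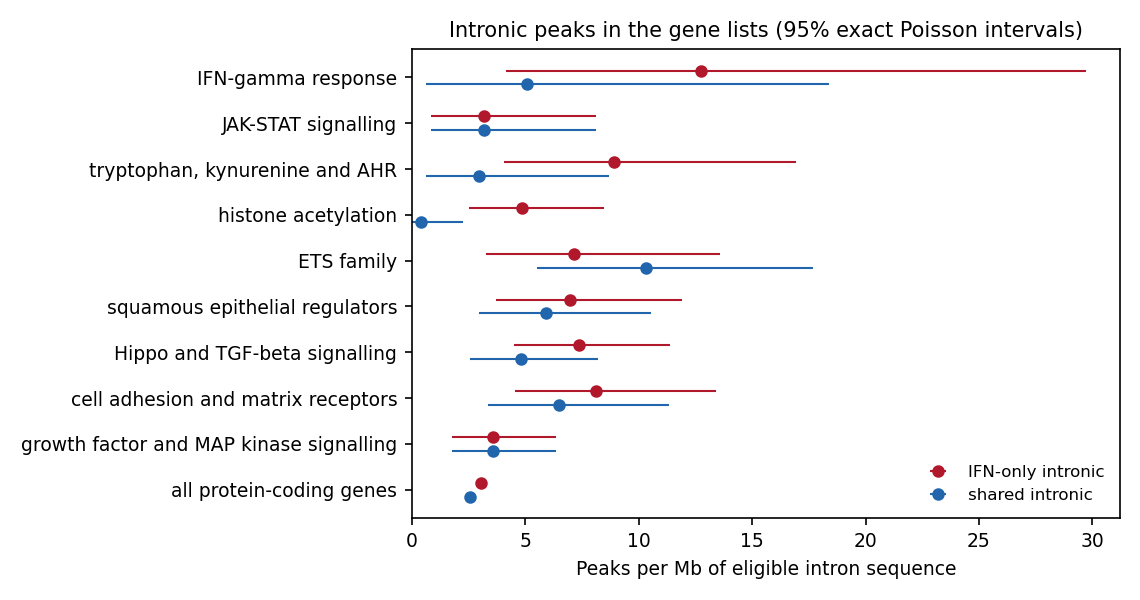
Members and shared intronic peaks per Mb of eligible intron sequence in each gene list, with exact Poisson 95% intervals. The histone acetylation list holds 12 members and 1 shared peak, the JAK-STAT and growth factor lists have equal densities of the 2 kinds, and the ETS family list has more shared peaks.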

How the data were processed

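Flag ChIP-seq was analysed from the deposited peak lists of 2 libraries, 1 control and 1 IFN-γ. The authors trimmed paired-end reads (Cutadapt 1.18), aligned them to GRCh38 (Bowtie2 2.3.4.1), removed duplicates (Picard) and called peaks per library (MACS2 2.1.2, p-value cutoff 0.01 as stated). The deposited lists end higher, at −log10 p-values of 3.52 and 3.46 and −log10 q-values of 1.30 and 1.32. Whether the input entered the calls is not given in the sources used here. For each peak the deposited lists give a fold enrichment (a ratio), the −log10 p-value and −log10 q-value, a display score that was not used, and the summit offset. The lists hold 30819 and 39654 peaks and no read totals. Whole-number pileups and backgrounds were solved from the fold and −log10 p (largest relative error 6.21e-06), and these pileups set the depth behind each value.

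Positions are 1-based. Genes and introns came from GENCODE 44, intron numbers from the MANE Select or canonical transcript, and sequences from GRCh38. Motifs were searched on both strands. Eligible sequence is intron sequence over 3 kb from any TSS. The classes were compared by Fisher's exact test. With 1 library per condition, no replicate error could be had.

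The members, gene lists and motifs were chosen with earlier results of these data known. The named genes were the 12 members highest by −log10 p, the 5 genes with the most members (ties by alphabet), the strongest 3 per gene list, the highest by fold with an ETS octamer (6), GAS-like or ISRE-like motif (3 each), the peaks nearest the 3 kb limit, and *CREBBP*, *IDO1*, *IDO2*, *KAT5*, *FLI1*, *IFNGR1*, *IFNGR2*, *JAK1* and *JAK2*. *CIITA*, *CLIP2*, *BBS2* and the weaker members of *AHR*, *AHRR* and *WWTR1* were named after their values were seen. Some of the planned values are left out of the text. Alternatives were other overlap, TSS, exon, motif and repeat limits, q-value cutoffs of 0.01 and 1e-05, and equal list lengths. A planned count of soft-masked summits was not run, because the reference used here is all in capitals, and tandem repeats were counted in its place. The scripts were tested on simulated data. The versions were samtools 1.23.1, pysam 0.24.0, scipy 1.17.1, numpy 2.4.6, pandas 2.3.3 and matplotlib 3.10.9 under Python 3.11.15.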

Additional observations from a re-analysis of the deposited data

How the results depend on the processing

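The number of members was 1621 with a TSS limit of 10 kb, 1757 at q-values under 1e-05 and 1687 when the IFN-γ list was cut to the length of the control list, and stayed within 1.5 times 2838 under the other limits tried. The ETS octamer share was 12.1% within 50 bp and 16.8% within 200 bp, 18.1% at q under 1e-05 and 18.3% at equal list length. It was 1.02% for CCGGAAGT alone, 97.9% for the core GGAA alone and 53.9% for the 7-letter word, which was added after the data were seen. After depth scaling, 95.4% of the members passed the control cutoff with the ratio from overlapping peaks and 80.7% with that of the median backgrounds. Host genes with a promoter peak were 72.9% within 1 kb of a TSS, 72.7% in the control list alone and 71.6% in the IFN-γ list alone. Tandem repeats of at least 24 bases were in 2.96% of the members, and ISRE-like sites in 7.88% of the members without a tandem repeat, both added after the data were seen. Against the IFN-only intergenic peaks, 0 motifs passed Fisher's exact test after adjustment at equal list length. There the GAS-like motif, the only 1 to pass in the full lists, had an adjusted exact p of 0.0798, and within 50 bp 0.605. The ETS core and TEAD differences from the shared peaks also did not pass Fisher's exact test at equal list length (adjusted p = 0.943 and 0.104), and the ISRE-like, SP/KLF, E-box and NF-kappaB differences passed under each alternative tried. No paired analysis was possible because there was 1 library per condition. The soft-masked share was not run. A median summit of 15 fragments limits what can be said of single peaks.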
